A study of Arabidopsis thaliana with 12 samples.

Results

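Plant U-box (PUB) proteins are ubiquitin ligases, enzymes that attach ubiquitin to chosen proteins and so mark them for breakdown or change how they act. Described here are the transcripts of 5 Arabidopsis PUB genes, PUB54 (AT1G01680), PUB22 (AT3G52450), PUB23 (AT2G35930), PUB24 (AT3G11840) and PUB12 (AT2G28830), out of 32678 genes in the deposited count table. All 5 had enough reads to be tested, among 18770 genes that did. They were picked by identifier as U-box ligases with a place in leaf defence, with the difference between the mutant eds1-2 and Col-0 already known for PUB54. For that pair of genotypes their values are therefore given as a description, with no test.

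The samples were leaves of 4-week-old Arabidopsis thaliana, infiltrated by syringe with Pst AvrRps4 at an OD600 of 0.005 and taken 4 h later. Pst AvrRps4 is a Pseudomonas syringae pv. tomato strain that injects the effector AvrRps4. All 4 genotypes received the same bacteria. Col-0 is the standard accession, eds1-2 a mutant of the immune regulator EDS1, w.tEDS1 a line with the wild-type EDS1 protein (called cEDS1(wt) in the design text) and R493A a line with the EDS1 variant of that name. The labels state neither the promoter, the genetic background nor the number of independent transformants behind the w.tEDS1 and R493A lines. Each genotype has 3 libraries, and each library holds RNA pooled from 4 plants. Untreated and mock-treated leaves were not analysed here, so no value below is a response to the bacteria. Whole leaves were measured, so fewer cells that express a gene and less of its RNA per cell cannot be told apart.

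PUB22, PUB23 and PUB24 are close relatives known as negative regulators of pattern-triggered immunity, the defence layer that starts when receptors at the cell surface detect bacterial molecules. PUB22 marks EXO70B2, a subunit of the exocyst complex that tethers vesicles to the plasma membrane, and PUB22 and PUB23 also restrain the response to drought. PUB12, with its relative PUB13, ubiquitinates the flagellin receptor FLS2 after flagellin is sensed. PUB54 carries a U-box by its annotation, and no target or role is given for it here. EDS1 acts in a different layer, downstream of intracellular receptors such as those that recognise AvrRps4, and upstream of salicylic acid accumulation.

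The sequences upstream of PUB54, PUB22 and PUB23 are shown because these genes represent the contrasting patterns of the set, and because PUB22 and PUB23 share both a pattern and stretches of upstream sequence. Each run is the 250 bases before the annotated start in RefSeq build TAIR10.1, read 5′ to 3′ on the strand of the gene, which is the minus strand in all 3 cases. Capitals mark TTGAC, the core of the W-box that WRKY transcription factors bind, or its reverse complement GTCAA.
PUB54, chr1:248441-248690: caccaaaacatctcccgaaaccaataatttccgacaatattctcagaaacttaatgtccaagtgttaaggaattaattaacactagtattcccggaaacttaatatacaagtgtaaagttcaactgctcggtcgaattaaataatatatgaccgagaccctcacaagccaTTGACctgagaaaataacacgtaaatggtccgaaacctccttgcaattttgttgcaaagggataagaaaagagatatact
PUB22, chr3:19442428-19442677: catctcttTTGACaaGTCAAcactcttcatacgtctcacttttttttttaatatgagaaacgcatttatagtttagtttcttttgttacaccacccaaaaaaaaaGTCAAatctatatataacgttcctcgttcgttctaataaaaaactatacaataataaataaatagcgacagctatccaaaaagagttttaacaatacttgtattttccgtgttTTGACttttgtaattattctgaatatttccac
PUB23, chr2:15084560-15084809: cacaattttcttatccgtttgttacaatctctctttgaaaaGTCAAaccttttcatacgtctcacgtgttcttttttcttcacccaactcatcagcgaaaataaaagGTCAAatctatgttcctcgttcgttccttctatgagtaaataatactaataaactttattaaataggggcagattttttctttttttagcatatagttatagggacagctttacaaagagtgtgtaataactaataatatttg
The core occurred 1 time in this window for PUB54, 80 bases before the start. It occurred 4 times for PUB22, and 2 times for PUB23, which has 2 more within the 50 bases after the start. Counted on both strands over the 300 bases that include those 50, the core was present in 50.5% of 26711 gene windows, and 4 or more copies, as in PUB22 and PUB23, in 1.13% of them. The longer forms TTGACC or TTGACT, which contain the core, occurred 1 time in the window of PUB54 and 3 times in each of PUB22 and PUB23, and 32.4% of all windows had at least 1. PUB24 had 1 core and neither longer form, and PUB12 had no core. PUB22 and PUB23 also shared ttcatacgtctcac, 14 bases beginning 225 and 199 bases before their starts, and gttcctcgttcgttc, 15 bases beginning 127 and 132 bases before them. Each of these stretches was found in 2 of the 26711 upstream windows, those of PUB22 and PUB23, and no other pair of the 5 genes shared 12 or more bases in a row. These are matches of letters and show no binding.

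All 5 genes lie on the minus strand. PUB54 spans bases 246262 to 248440 of chromosome 1 and has 7 exons. PUB22, bases 19440617 to 19442427 of chromosome 3, and PUB23, bases 15082855 to 15084559 of chromosome 2, are single-exon genes. PUB24 (chromosome 3, bases 3736578 to 3738208) has 2 exons and PUB12 (chromosome 2, bases 12368220 to 12370420) has 4. A gene on the opposite strand, AT2G35935, overlaps PUB23 in the annotation, and since the library kit does not mark strand, its reads cannot be told apart from those of PUB23. PUB22 starts 1.69 Mb from EDS1, close to PAD4, which encodes a partner protein of EDS1.

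Read depth and sample structure bear on what follows. Each library had from 19273912 to 24572145 reads counted to genes, and levels are given as TMM-scaled CPM, reads per library scaled to a common total. EDS1 itself averaged 42.5 ± 25.9 CPM in Col-0, 144 ± 45.9 CPM for w.tEDS1, 3.94 ± 0.14 for eds1-2 and 24.7 ± 5.96 for R493A (SD, n = 3 each), and the 3 eds1-2 libraries were the lowest. All w.tEDS1 libraries (111 to 196 CPM) lay above those of Col-0 (23.2 to 72.0). R493A (19.4 to 31.1 CPM) lay below w.tEDS1 and overlapped Col-0. Col-0 replicates 1 and 2 were the only libraries of lane 6 of their sequencing run and stood apart on the first principal component (41.7% of the variance, at −62.9 and −92.6 against −1.68 to 48.5 for the other genotypes), while Col-0 replicate 3, in lane 7 with all w.tEDS1 libraries, lay at −0.307. The eds1-2 and R493A libraries were spread over lanes 7 and 8 and a second run. Against Col-0, genes starting within 2 Mb of EDS1 were called more often than all other genes, 10.6% against 0.75% in w.tEDS1, 12.6% against 1.39% in R493A and 13.4% against 1.64% in eds1-2. Summed markers of leaf mesophyll (3 genes) ranged from 19305 to 32269 CPM over the libraries, and those of root hairs (2 genes) were at 0 in 11 of them and at 0.0468 CPM in 1 w.tEDS1 library. The mesophyll sum was 19305 to 27419 CPM in Col-0, below w.tEDS1 (29583 to 31777) and eds1-2 (29335 to 32269) and overlapping R493A (25380 to 28592). Phloem markers (2 genes) summed to 179 to 260 CPM over the libraries, lowest in Col-0 replicate 1. Guard cell markers (3 genes) summed to 33.3 to 97.0 CPM.

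The levels of the 5 genes differed widely. Per kb of exon and averaged over the 12 libraries, PUB23 was highest at 74.2 CPM, followed by PUB22 at 44.4, PUB24 at 20.5, PUB54 at 8.20 and PUB12 at 1.71. PUB54 had by far the widest spread, from 7 reads in an eds1-2 library to 1506 reads in a Col-0 library, whereas PUB12 ranged only from 43 to 117 reads.

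**Figure D1:**
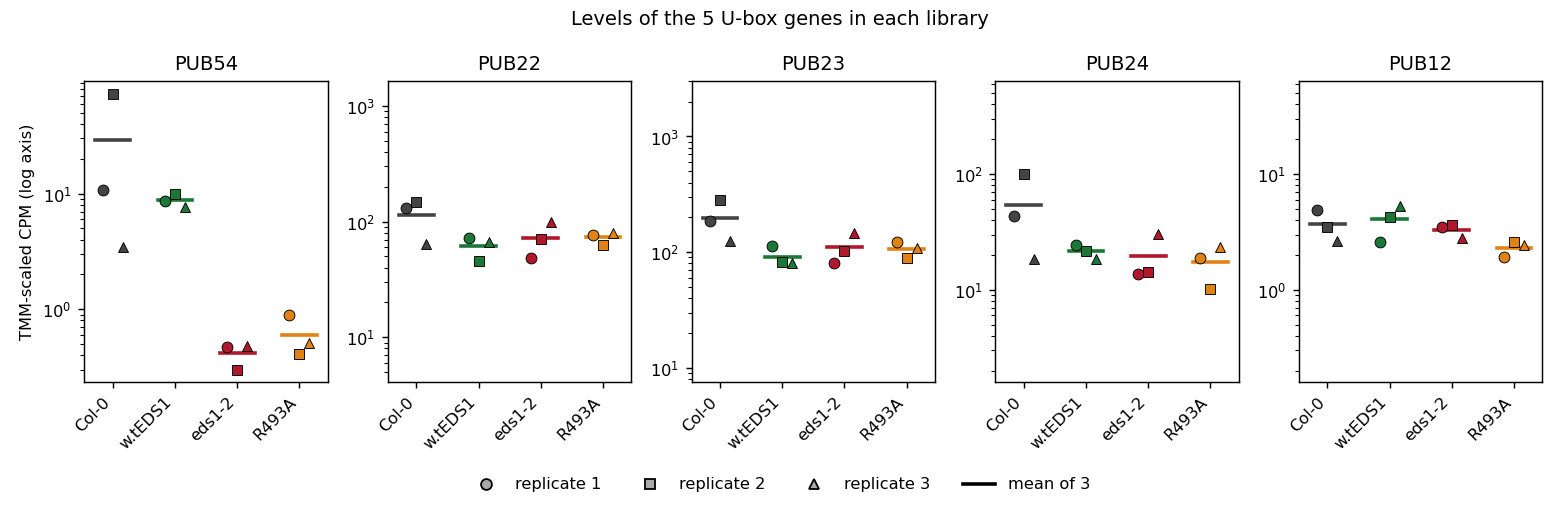
TMM-scaled CPM of PUB54, PUB22, PUB23, PUB24 and PUB12 (vertical log axes, each with its own range) in each of the 12 libraries, grouped by genotype on the horizontal axis; the marker shape gives the replicate and the line the mean of 3. PUB54 lies at 3.48 CPM or above in the 6 Col-0 and w.tEDS1 libraries and at 0.885 or below in the 6 eds1-2 and R493A libraries, and for PUB22, PUB23 and PUB24 the highest points are Col-0 replicates 1 and 2.

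PUB54 separated the genotypes with wild-type EDS1 from the other 2. Col-0 replicate 1 had 10.8 CPM, replicate 2 had 73.3 and replicate 3 had 3.48, and w.tEDS1 was at 8.64, 9.97 and 7.58 CPM in its 3 libraries. It was at 0.471, 0.301 and 0.479 CPM in eds1-2 and at 0.885, 0.412 and 0.515 CPM in R493A. All 6 libraries with wild-type EDS1 were above all 6 of eds1-2 and R493A, and the lowest of the former was 3.93-fold above the highest of the latter. Set against w.tEDS1 alone, without Col-0, the ratio was 8.56, and 0.394% of genes had a ratio of 2 or more. A gap over all 12 libraries in this direction was found for 209 of 18770 tested genes (1.11%), and a gap of at least 2-fold for 47 (0.25%). For PUB22, PUB23, PUB24 and PUB12 the same ratio was below 1, between 0.461 and 0.721. These shares include the Col-0 and eds1-2 libraries with which PUB54 was chosen and are a description.

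The w.tEDS1 line against eds1-2 compares leaves with and without wild-type EDS1. Its 3 eds1-2 libraries are those PUB54 was chosen with, so the low level there was known beforehand and the p-values of PUB54 in this comparison are not independent evidence. PUB54 averaged 8.73 ± 1.20 CPM in w.tEDS1 and 0.417 ± 0.10 in eds1-2 (SD, n = 3), a fitted difference of 4.37 on the log2 scale (SE 1.01, 95% interval 2.16 to 6.58), and the groups did not overlap. Over all 12 libraries it did not pass the edgeR quasi-likelihood test after adjustment over 18770 genes (adjusted p = 0.388, unadjusted p = 0.00112). The adjusted p was under 0.05 in edgeR with the 6 libraries alone (adjusted p = 0.00237) and with DESeq2 (adjusted p = 0.00113), and also without Col-0 replicate 2 (adjusted p = 0.00991), where the SE was 0.460 and the difference 4.37, or without Col-0 replicate 3 (adjusted p = 0.0326). These were the only 4 calls among 23 alternatives. The adjusted p ranged from 0.00113 to 1 over them, while the difference stayed between 4.12 and 4.84. PUB54 rests on few reads in eds1-2, 29 over the 3 libraries (exact Poisson 95% interval 19.4 to 41.6), against 570 in w.tEDS1 (524 to 619), intervals that cover counting error only.

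None of the other members differed detectably between w.tEDS1 and eds1-2. PUB22 differed by −0.24 (log2, 95% interval −0.94 to 0.45), PUB23 by −0.26 (−0.90 to 0.38), PUB24 by 0.14 (SE 0.52) and PUB12 by 0.31 (−0.33 to 0.95). Their adjusted p was 1.00 in each case by edgeR. In all, edgeR called 0 of 5 members, where it called 0.0746% of all tested genes, and 1 member (PUB54) had an unadjusted p under 0.05. DESeq2 called 1 member, where it called 0.448% of all genes fitted, and limma-voom 0. Of the 5, 1 did not overlap between the groups, PUB54, as did 7.82% of all genes.

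R493A against w.tEDS1 compares the variant with the wild-type form of EDS1, and shares no library with the pair of genotypes that PUB54 was chosen on. PUB54 averaged 0.604 ± 0.249 CPM in R493A against 8.73 ± 1.20 in w.tEDS1, a difference of −3.83 (log2, SE 0.97, 95% interval −5.96 to −1.71). Again the groups did not overlap, and again the call depended on the fit. Over all libraries the adjusted p was 0.300 by edgeR (unadjusted p = 0.00213). It was 0.00309 with the 6 libraries alone, 0.00531 by DESeq2, 0.00670 without Col-0 replicate 2 and 0.0367 without Col-0 replicate 3. These were the only 4 calls among 23 alternatives, over which the adjusted p ranged from 0.00309 to 0.999. EDS1 mRNA itself was lower in R493A (19.4 to 31.1 CPM) than in w.tEDS1 (111 to 196), so the form and the amount of EDS1 cannot be told apart here. Within lane 7 of the main run alone, where w.tEDS1 has 3 libraries and R493A 1, the difference was −3.31 (adjusted p = 0.229), with the lone R493A library assumed to vary like the others.

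PUB12 was the second gene to separate R493A from w.tEDS1. It was at 1.90, 2.56 and 2.42 CPM in R493A and at 2.61, 4.27 and 5.34 CPM in w.tEDS1, so that the highest R493A library lay just below the lowest w.tEDS1 library. The difference was −0.83 (log2, SE 0.30, 95% interval −1.48 to −0.17), with an adjusted p of 0.816 (edgeR, unadjusted p = 0.0180), and it is not a call. PUB22 differed by 0.26 (−0.44 to 0.96), PUB23 by 0.23 (−0.41 to 0.87) and PUB24 by −0.30 (−1.46 to 0.85), each with an adjusted p of 0.999. EdgeR called 0 of 5 members, where it called 0.224% of all genes, and 2 members had an unadjusted p under 0.05. DESeq2 called 1, against 0.826% of all genes, and limma-voom 0. The 2 members without overlap compare with 13% of all genes.

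**Figure D2:**
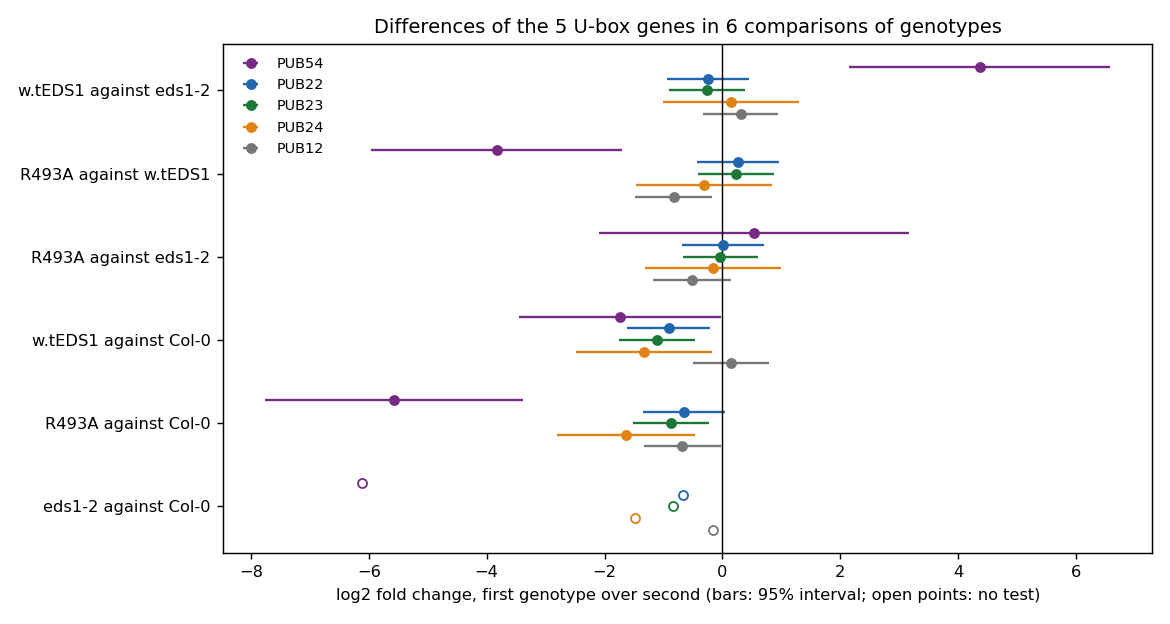
Fitted log2 fold changes (horizontal axis) of the 5 genes in 6 pairs of genotypes, first over second; bars are 95% intervals from the edgeR fit, and open points mark the pair used to choose the genes, which was not tested. The intervals of PUB54 lie wholly above 0 for w.tEDS1 against eds1-2 (2.16 to 6.58) and wholly below 0 for R493A against w.tEDS1 (−5.96 to −1.71), while those of PUB22, PUB23 and PUB24 cross 0 in both.

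No member was called between R493A and eds1-2. PUB54 differed by 0.54 (log2, 95% interval −2.10 to 3.18), PUB22 by 0.01, PUB23 by −0.03, PUB24 by −0.16 and PUB12 by −0.52, each with an adjusted p of 1 by edgeR. The interval of PUB54 is wide enough to hold differences of several fold in either direction, so these 2 genotypes are not shown to be alike. PUB12 did not overlap between the groups, with 2.78 to 3.61 CPM in eds1-2, as did 8.06% of all genes. EdgeR, DESeq2 and limma-voom called 0 of 5 members, and 0 had an unadjusted p under 0.05 in edgeR. Of all genes 0.0373% were called by edgeR and 0.165% by DESeq2. The eds1-2 libraries are again those used in choosing PUB54.

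Values relative to Col-0 depended on which of its libraries entered. PUB54 fell in R493A relative to Col-0 by 5.57 on the log2 scale (SE 1.00, 95% interval −7.75 to −3.39, adjusted p = 0.0193 by edgeR), and the groups did not overlap. It was the only one of the 5 called, where 1.77% of all genes were called and 1.51% were called lower. The Col-0 libraries here are those that PUB54 was chosen with. The difference was −3.56 without Col-0 replicate 2 and −6.10 without Col-0 replicate 3. The call was lost in 10 of 23 alternatives, among them limma-voom (−4.55, adjusted p = 0.177), the 6 libraries alone (−5.57, adjusted p = 0.167) and each R493A library left out. With the lane as a covariate, where Col-0 rests on replicate 3 alone, the difference was −2.21. DESeq2 called 2 members, PUB54 and PUB24 (−1.65, adjusted p = 0.0272), where it called 7.76% of all genes, and limma-voom 0.

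Between w.tEDS1 and Col-0, both with wild-type EDS1 but with more EDS1 mRNA in w.tEDS1, PUB54 differed by −1.74 (log2, SE 0.78, adjusted p = 0.214 by edgeR) and the groups overlapped. Without Col-0 replicate 2 the difference was 0.28. It was 1.33 within lane 7, where Col-0 has only replicate 3. For eds1-2 against Col-0, the pair used in choosing, where 2.04% of all genes were called and 20.5% did not overlap, the difference was −6.11, or −4.09 without Col-0 replicate 2.

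**Figure D3:**
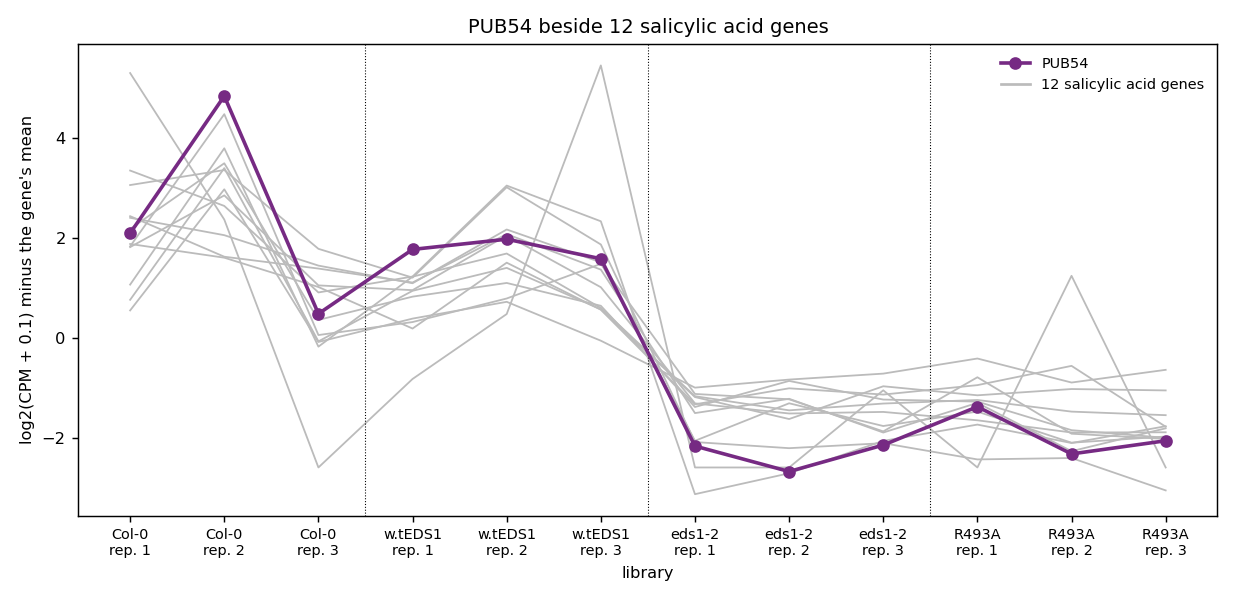
Log2 level of PUB54 (purple) and of 12 salicylic acid genes (grey), each minus its own mean over the 12 libraries (vertical axis), by library (horizontal axis; dotted lines separate the genotypes). PUB54 is above its mean in the 6 Col-0 and w.tEDS1 libraries and below it in the 6 eds1-2 and R493A libraries, and it is highest in Col-0 replicate 2, which also has the highest summed level of the 12 genes (2133 CPM).

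The salicylic acid genes that act under EDS1 are given beside PUB54. They were listed with earlier results of these data known, so their share of calls is not independent evidence. Of 12 such genes, 5 were called higher in w.tEDS1 than in eds1-2, where 0.0746% of all genes were called (median log2 difference 2.72, against −0.01 over all genes), and 5 were called lower in R493A than in w.tEDS1, where 0.208% were called lower (median −2.96, against 0.01). None of the 12 was called between R493A and eds1-2 by edgeR, DESeq2 or limma-voom, and 0 had an unadjusted p under 0.05 in edgeR. The calls in w.tEDS1 against eds1-2 were led by WRKY70 at 3.34 (adjusted p = 0.00742), WRKY54 at 3.10 (adjusted p = 0.0194) and, with the lowest counts, WRKY51 at 4.91 (adjusted p = 0.0249), all 3 encoding WRKY transcription factors linked to salicylic acid. Between R493A and w.tEDS1 they differed by −3.49, −3.33 and −5.66 (adjusted p = 0.00260, 0.00658 and 0.00933). With the lane as a covariate none of the 12 was called in either comparison, and the medians were 2.72 and −2.72. Without Col-0 replicate 2, 7 and 8 of the 12 were called in these 2 comparisons. In w.tEDS1 against eds1-2 that setting called 31 genes in all, in place of 14. Limma-voom called 2 and 3 of the 12 in the 2 comparisons, against 0.032% and 0.123% of all genes.

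The summed level of the 12 genes came to 1162 CPM in replicate 1 of Col-0, 2133 in replicate 2 and 564 in replicate 3, 556 to 1009 in w.tEDS1, 117 to 137 in eds1-2 and 110 to 145 in R493A. Thus, as for PUB54, the 6 upper libraries did not overlap with the 6 lower ones, and Col-0 replicates 1 and 2 were highest.

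The genes whose pattern over the 12 libraries was most like that of PUB54, among tested genes of at least 5 CPM, were AT5G25260, annotated as an SPFH/Band 7 membrane protein, NUDT6, a Nudix hydrolase, and AT4G11170, a TIR-type receptor gene. Likeness was measured as the root mean square difference of log2 levels after centring each gene, and was 0.624, 0.666 and 0.818 for these genes, where PUB54 itself varied with an SD of 2.45. NUDT6 averaged 27.2 ± 31.6 CPM in Col-0, 13.3 ± 5.07 CPM for w.tEDS1, 0.562 ± 0.113 for eds1-2 and 0.533 ± 0.308 for R493A. Without Col-0 replicate 2 the 3 nearest genes were AT1G19960 (0.506), WRKY70 (0.519) and AT3G22235 (0.539), with 0 of the first 3 kept. All genes share the same libraries, and likeness is a description with no test.

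The direct neighbours of PUB54 were low in all 4 genotypes. AT1G01670, itself a U-box gene also known as PUB56, lies 207 bases from PUB54 on the same strand. It averaged 1.62 ± 0.69 CPM in Col-0, 1.75 ± 0.45 CPM for w.tEDS1, 1.70 ± 0.42 for eds1-2 and 1.21 ± 0.14 for R493A. Its difference between w.tEDS1 and eds1-2 was 0.05 (log2, SE 0.35, adjusted p = 1.00 by edgeR). On the other side PRD3, a gene needed for meiotic double-strand breaks, lay 600 bases away at 0.943 to 1.29 CPM on average in the 4 genotypes. Of the 10 direct neighbours of the 5 genes 9 were tested, and their lowest adjusted p in any of the 6 comparisons was 0.160 by edgeR (AT3G11850, beside PUB24). AT3G52440, beside PUB22, had too few reads to be tested.

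PUB22, PUB23 and PUB24, the trio that restrains pattern-triggered immunity, did not separate genotypes with wild-type EDS1 from the others. PUB22 was at 132, 148 and 64.1 CPM in Col-0 and at 71.5, 45.4 and 66.2 in w.tEDS1. It was at 48.4, 70.1 and 98.6 CPM in eds1-2 and at 76.7, 62.9 and 79.5 in R493A. Col-0 replicates 1 and 2 were above every other library, and Col-0 replicate 3 lay among the rest.

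PUB23, the most abundant of the 5, was at 185, 282 and 124 CPM in Col-0 and at 112, 82.2 and 80.6 in w.tEDS1. It was at 80.8, 102 and 147 CPM in eds1-2 and at 123, 89.8 and 109 in R493A. All 3 Col-0 libraries were above those of w.tEDS1 and R493A, the lowest of them narrowly, and eds1-2 replicate 3 was above Col-0 replicate 3. PUB24 was at 43.3, 101 and 18.6 CPM in Col-0 and at 24.3, 21.7 and 18.5 in w.tEDS1. It was at 13.8, 14.3 and 30.3 CPM in eds1-2 and at 18.7, 10.1 and 23.4 in R493A, and every pair of genotypes overlapped.

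For all 3 genes the order of the highest libraries was the same, Col-0 replicate 2, then Col-0 replicate 1, then eds1-2 replicate 3. PUB22 and PUB23 followed each other most closely, with a root mean square difference of 0.194 (log2) over the 12 libraries. PUB24 differed from PUB23 by 0.433 and from PUB22 by 0.506 on this measure, and PUB54 differed from the other 4 members by 1.82 to 2.19. Genotype means gave no firm order, since the means of w.tEDS1, eds1-2 and R493A differed by less than the larger SD for PUB22 (61.0 ± 13.8, 72.4 ± 25.2 and 73.1 ± 8.89 CPM) and for PUB24 (21.5 ± 2.90, 19.5 ± 9.40 and 17.4 ± 6.75).

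Relative to Col-0 all 3 had lower means in each other genotype, and edgeR called none of them in w.tEDS1 or R493A. In w.tEDS1 the differences were −0.91 for PUB22 (log2, adjusted p = 0.135), −1.10 for PUB23 (adjusted p = 0.0837) and −1.33 for PUB24 (adjusted p = 0.170). In R493A they were −0.65 (adjusted p = 0.287), −0.88 (adjusted p = 0.139) and −1.64 (adjusted p = 0.129). In eds1-2, without a test, they were −0.67, −0.85 and −1.48. These 3 comparisons share the Col-0 libraries and are not 3 separate observations.

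Those differences depended on the Col-0 libraries. Without Col-0 replicate 3, w.tEDS1 was called lower than Col-0 for PUB22 (−1.19, adjusted p = 0.0236), PUB23 (−1.34, adjusted p = 0.0175), PUB24 (−1.74, adjusted p = 0.0327) and PUB54 (−2.26, adjusted p = 0.0308), at a background of 2701 genes called in place of 204. Without Col-0 replicate 3 the same 4 members were called lower in R493A, where 2367 genes were called in place of 333. Within lane 7 alone, where Col-0 is replicate 3, PUB24 was at 0.21 for w.tEDS1 and PUB22 at 0.25 for R493A. With all libraries edgeR called 0 of 5 members in w.tEDS1 against Col-0, where it called 1.09% of all genes. At an unadjusted p under 0.05 it gave 4 members, and the share of all genes under that threshold is not given here. DESeq2 called 1 (PUB23, −1.12, adjusted p = 0.0103), where it called 9.32% of all genes, and limma-voom called 0. Of the members, 1 did not overlap in that comparison (PUB23) where 22.8% of all genes did not, and 3 did not in R493A against Col-0 (PUB54, PUB23 and PUB12) where 19.6% did not.

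**Figure D4:**
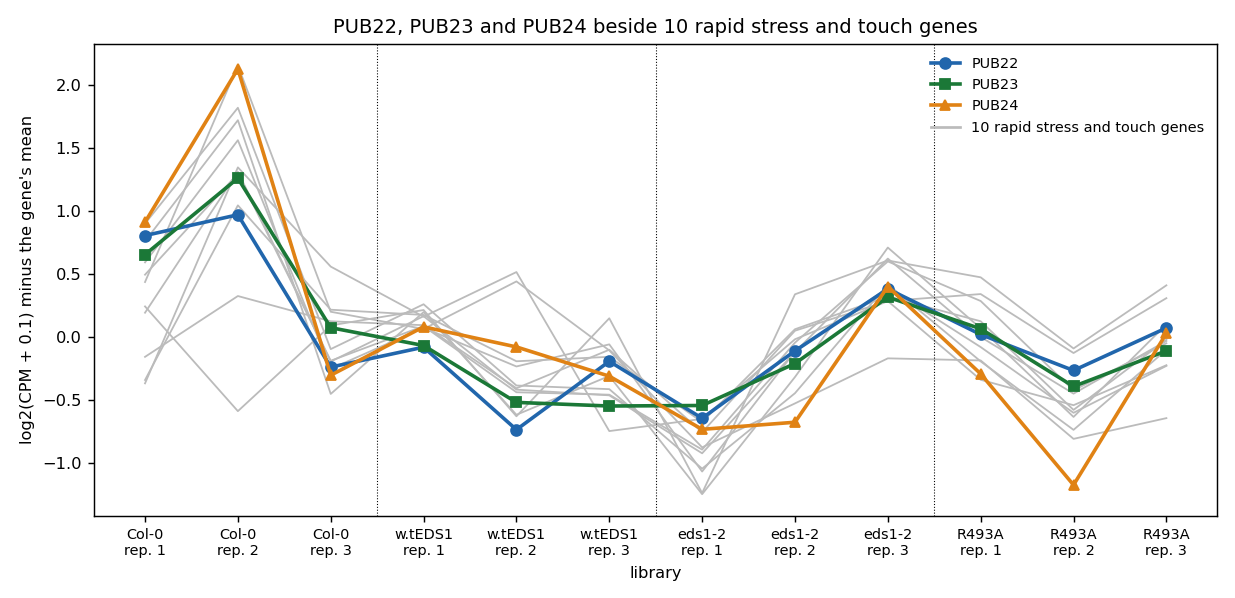
Log2 level of PUB22 (blue), PUB23 (green) and PUB24 (orange) and of 10 rapid stress and touch genes (grey), each minus its own mean over the 12 libraries (vertical axis), by library (horizontal axis; dotted lines separate the genotypes). The 3 U-box genes peak in Col-0 replicate 2, Col-0 replicate 1 and eds1-2 replicate 3, the libraries in which the summed grey genes are also highest (2914, 1432 and 1398 CPM).

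Summed, genes induced within minutes by touch, wounding and infiltration were highest in the same 3 libraries as PUB22, PUB23 and PUB24. The summed level of 10 such genes, among them the calmodulin-like TCH2 and TCH3 and the transcription factor genes WRKY40 and WRKY33, came to 1432 CPM in replicate 1 of Col-0, 2914 in replicate 2 and 1033 in replicate 3. It was 942 to 1160 CPM in w.tEDS1, 524, 973 and 1398 in eds1-2 replicates 1, 2 and 3, and 757 to 1131 in R493A. The order of the 3 highest libraries was also that of the U-box genes, and the order below them differed. This holds for the sum, in which TCH3 had the highest Col-0 mean, 638 CPM. Of the 10 genes, 1, 2 and 1 had positive differences from Col-0 in w.tEDS1, R493A and eds1-2, and the rest negative ones. TCH4 averaged 201 CPM in Col-0, 221 in eds1-2 and 252 in R493A. EdgeR and limma-voom called 0 of the 10 genes in any comparison. At an unadjusted p under 0.05, a threshold with no share of all genes to set beside it, edgeR gave 0 in the 3 comparisons without Col-0 and 2, 4 and 3 lower in w.tEDS1, R493A and eds1-2 against Col-0. DESeq2 called 0, 2 and 2 of them lower in those 3 comparisons, where it called 9.32%, 7.76% and 9.82% of all genes. Their median differences from Col-0 were −0.85, −0.93 and −0.72 (log2) in w.tEDS1, R493A and eds1-2, against −0.01, 0.01 and −0.01 over all genes, and −0.24, −0.37 and −0.23 without Col-0 replicate 2. Guard cell markers were at 33.3 CPM in Col-0 replicate 2, 50.4 in Col-0 replicate 1 and 45.2 in eds1-2 replicate 3, against 48.9 to 97.0 in the other 9 libraries, and their median differences from Col-0 were 0.47, 0.65 and 0.68. The parts of the stress genes, and of leaf make-up, in the levels of the U-box genes were not tested.

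PUB22 and PUB23 had close company among other genes. Nearest to PUB22 were AT3G17770 (root mean square difference 0.103), a dihydroxyacetone kinase by annotation, AT5G36925 (0.126) and RSH3 (0.131), a chloroplast enzyme of the alarmone ppGpp, where PUB22 itself varied with an SD of 0.51. Nearest to PUB23 were AT4G30490 (0.0940), the hexose transporter gene MSS1 (0.110), also known as STP13, and AT2G17705 (0.116), at an SD of 0.54. Nearest to PUB24 were AT5G08240 (0.230), CAF1b (0.232), which encodes a deadenylase and belongs to the 10 rapid stress genes, and UGT71B6 (0.260), a glucosyltransferase of abscisic acid, at an SD of 0.86. Without Col-0 replicate 2, 1 of the 3 was kept for PUB22, 0 for PUB23 and 2 for PUB24, the latter AT5G08240 and CAF1b.

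The position of PUB22 near EDS1 touches its comparisons with Col-0, within the window of 2 Mb named above. PUB22 was itself not called in them. Its tested neighbour AT3G52460 was not called in any comparison, whereas PAD4, which lies between PUB22 and EDS1, differed by −3.38 in eds1-2 against Col-0 (log2, adjusted p = 0.0422 by edgeR). Whether the chromosome segment has a part in the level of PUB22 was not tested.

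PUB12, which with PUB13 ubiquitinates FLS2, was low throughout. It was at 4.91, 3.45 and 2.63 CPM in Col-0 and at 3.45, 3.61 and 2.78 in eds1-2, and the w.tEDS1 and R493A values are given above. The means were 3.67 ± 1.16 CPM in Col-0, 4.07 ± 1.37 CPM for w.tEDS1, 3.28 ± 0.44 for eds1-2 and 2.30 ± 0.35 for R493A (SD, n = 3). R493A had the 3 lowest libraries of the 12, and the other genotypes overlapped. Relative to Col-0 it differed by −0.68 in R493A (adjusted p = 0.243 by edgeR), 0.15 in w.tEDS1 (adjusted p = 0.793) and −0.16 in eds1-2, where no test was made. Its nearest genes by pattern were ICR1 (0.235), an interactor of ROP small GTPases, AT3G07570 (0.240) and AT5G52540 (0.250), against an SD of 0.43 for PUB12 itself.

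PUB13, the partner of PUB12, was the only further gene with a PUB number in the annotation to be called in any comparison by edgeR. Among 18 other genes with a PUB number in the annotation 17 were tested, and PUB15 was not, with 1 read in all. AT1G01670 (PUB56) and CMPG1 (PUB20) carry no PUB number there and are not among the 18. PUB13 was at 92.5, 114 and 71.1 CPM in Col-0, at 43.8, 57.9 and 50.5 in w.tEDS1, at 42.5, 39.0 and 37.8 in eds1-2 and at 38.7, 42.5 and 37.4 in R493A. All 3 Col-0 libraries were above all 9 others. PUB13 fell relative to Col-0 by 0.87 in w.tEDS1 (log2, SE 0.16, adjusted p = 0.0351), by 1.23 in R493A (SE 0.16, adjusted p = 0.00363) and by 1.22 in eds1-2 (SE 0.16, adjusted p = 0.00430), all by edgeR. In these comparisons 0.581%, 1.51% and 1.44% of all genes were called lower. It starts 0.632 Mb from EDS1, within the window where genes were more often called against Col-0, and a part of that window in the level of PUB13 was not tested. The call in w.tEDS1 was kept in 9 of 23 alternatives, and those in R493A and eds1-2 in 20 of 23 each. With the lane as a covariate none was called and the differences were −0.48, −0.88 and −0.87. PUB13 was not called in the comparisons without Col-0, where it differed by 0.35 in w.tEDS1 against eds1-2 and by −0.36 in R493A against w.tEDS1 (adjusted p = 1.00 and 0.999).

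**Figure D5:**
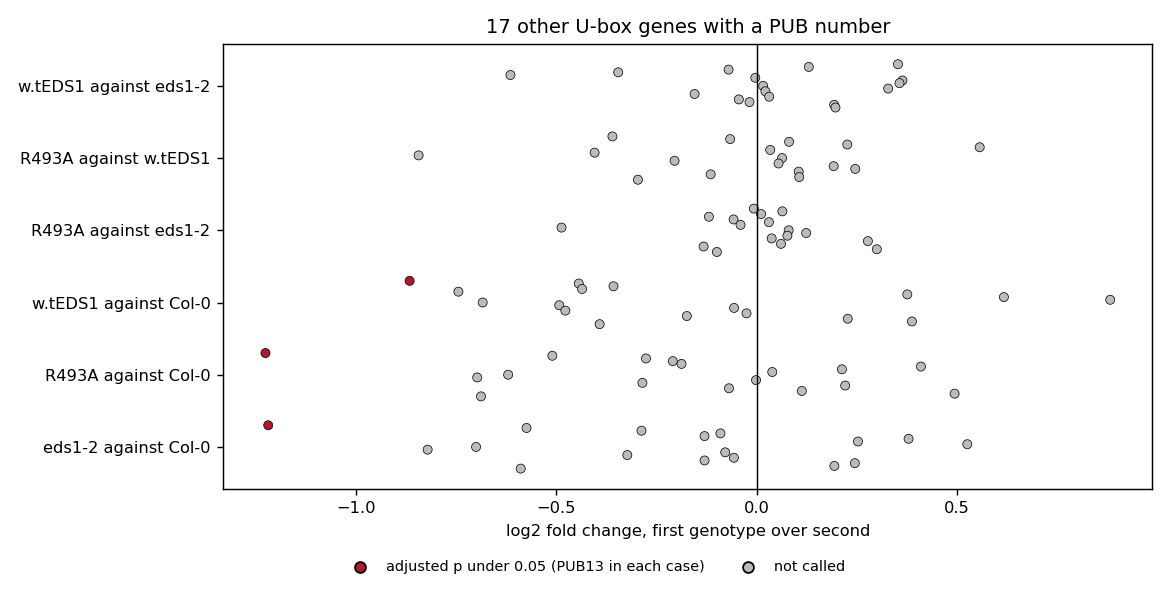
Fitted log2 fold changes (horizontal axis) of 17 further genes with a PUB number in 6 pairs of genotypes; red points have an adjusted p under 0.05. The 3 red points are PUB13 at −0.87, −1.23 and −1.22 in the comparisons with Col-0, and the other 3 pairs hold no red point.

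The other defence-related PUB genes gave no call. PUB25 and PUB26, whose proteins mark the receptor-like cytoplasmic kinase BIK1 for breakdown, were low, at 4.02 to 5.34 and 4.38 to 6.72 CPM on average in the 4 genotypes. PUB4, at 24.6 CPM in eds1-2, and PUB17, at 120 to 154 CPM, a positive regulator of hypersensitive cell death, differed between w.tEDS1 and eds1-2 by 0.02 and −0.07 (log2). SAUL1, a U-box ligase that keeps leaves from early senescence, averaged 76.3 ± 22.0 CPM in Col-0, 58.1 ± 2.17 CPM for w.tEDS1, 50.7 ± 8.24 for eds1-2 and 47.3 ± 4.32 for R493A, and its difference of −0.69 in R493A against Col-0 had an adjusted p of 0.0941 by edgeR. CMPG1, named after a parsley ligase induced by elicitors, differed by −0.27 between w.tEDS1 and eds1-2 (adjusted p = 1.00). Over the 17 tested genes the median difference was 0.02 in w.tEDS1 against eds1-2, 0.05 in R493A against w.tEDS1 and 0.03 in R493A against eds1-2. In these 3 comparisons edgeR, DESeq2 and limma-voom called 0 of 17, and edgeR gave 0, 1 and 0 at an unadjusted p under 0.05. A wider list of 367 genes described as U-box or RING/U-box proteins, which takes in RING ligases, had 232 tested members and a median of −0.01 in w.tEDS1 against eds1-2 and of 0.01 in R493A against w.tEDS1. EdgeR called none of the 232 in the comparisons without Col-0. Against Col-0 it called 1 lower in w.tEDS1, 3 lower and 1 higher in R493A and 2 lower in eds1-2, with PUB13 among those lower in each. Of all genes 1.09%, 1.77% and 2.04% were called in these comparisons.

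Genes for the proteins that these ligases act on or with were not called in any comparison by edgeR. FLS2, the flagellin receptor and substrate of PUB12 and PUB13, averaged 74.5 ± 33.9 CPM in Col-0, 59.9 ± 16.2 CPM for w.tEDS1, 49.6 ± 10.3 for eds1-2 and 55.3 ± 8.25 for R493A. EXO70B2, the substrate of PUB22, averaged 118 ± 61.7, 81.1 ± 10.3, 69.2 ± 19.6 and 70.0 ± 14.4 CPM in that order. Between w.tEDS1 and eds1-2 FLS2 differed by 0.27, EXO70B2 by 0.23, the co-receptor BAK1 by −0.08 and BIK1 by −0.06 (log2), each with an adjusted p of 1.00 by edgeR. MPK3, the kinase that phosphorylates PUB22, was at 86.4 to 92.1 CPM in eds1-2 and 74.2 to 79.4 in R493A, below all w.tEDS1 libraries (108 to 168). The difference between R493A and w.tEDS1 was −0.76 (SE 0.25, adjusted p = 0.692, unadjusted p = 0.0118) and is not a call.

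Of 13 targets and partners, edgeR called 0 in each of the 6 comparisons. At an unadjusted p under 0.05 it gave 1 higher in w.tEDS1 against eds1-2, 2 lower in R493A against w.tEDS1, 0 in R493A against eds1-2, and 3, 6 and 6 lower in w.tEDS1, R493A and eds1-2 against Col-0. No share of all genes is given at that threshold, so these counts are not read as a result about the 13. In the comparisons with Col-0, in that order, 22.8%, 19.6% and 20.5% of all genes did not overlap between the groups. DESeq2 called 0 in the comparisons without Col-0 and 1, 3 and 1 lower in those with it, where it called 9.32%, 7.76% and 9.82% of all genes, and limma-voom called 0. All 13 had negative differences from Col-0 in each of the other genotypes, with medians of −0.48, −0.51 and −0.57 (log2) in w.tEDS1, R493A and eds1-2. Without Col-0 replicate 2 these medians were −0.08, −0.20 and −0.20. With the lane as a covariate, where Col-0 rests on replicate 3 alone, they were 0.20, 0.14 and 0.18.

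Of 17 ubiquitin ligases of defence outside the U-box family, edgeR called 1 in R493A and 2 in eds1-2 against Col-0, where 1.77% and 2.04% of all genes were called. In w.tEDS1 against Col-0 it called 0, where 1.09% of all genes were called. In that comparison 7 had an unadjusted p under 0.05, with no share of all genes given at that threshold. DESeq2 called 2 there, where it called 9.32% of all genes, and limma-voom called 0. ATL2, a RING ligase gene induced early by chitin, averaged 45.9 ± 5.55 CPM in Col-0, 30.8 ± 4.32 CPM for w.tEDS1, 25.1 ± 6.36 for eds1-2 and 22.2 ± 3.53 for R493A. It fell by 1.05 in R493A against Col-0 (log2, SE 0.20, adjusted p = 0.0237 by edgeR) and by 0.87 in eds1-2 against Col-0 (SE 0.19, adjusted p = 0.0471). AT1G14200, a RING gene, fell by 1.10 in eds1-2 against Col-0 (SE 0.24, adjusted p = 0.0422). In the 3 comparisons without Col-0 edgeR, DESeq2 and limma-voom called 0 of the 17, with 1, 1 and 0 at an unadjusted p under 0.05 in edgeR, and medians of −0.02, 0.03 and 0.03. The call of ATL2 in R493A was kept in 14 of 23 alternatives and that in eds1-2 in 5, and that of AT1G14200 in 6. Without Col-0 replicate 2 edgeR called none of the 17, with 3 at an unadjusted p under 0.05 in each comparison with Col-0.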

How the data were processed

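RNA-seq was done on 12 libraries, 3 per genotype, each from a pool of 4 plants. The authors deposited raw read counts per gene (32678 genes). TopHat2, HTSeq and limma are named, without versions or roles, in the submitters' processing notes, which give the build as TAIR10. Rows that name no gene held 9.69% to 22.9% of the reads of a library and were left out. Gene names and positions came from RefSeq TAIR10.1, which matched 31912 identifiers.

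Counts were fitted with edgeR 4.0.16 (R 4.3.3), with genotype as the only term, after filterByExpr left 18770 genes. Libraries were scaled by TMM, tests were two-sided quasi-likelihood tests, with Benjamini-Hochberg adjustment across the 18770 genes. Genes with an adjusted p under 0.05 are the ones called. Counts at an unadjusted p under 0.05 have no share of all genes beside them and are a description. Alternatives used DESeq2 1.42.0, limma-voom (limma 3.58.1), other scaling and filters, run or lane terms, subsets of libraries and each library left out. The fit was tested on simulated data. Likeness used log2 CPM with a prior count of 2 in genes of at least 5 CPM, and the 3 nearest genes to each member were named. Other named genes came from lists for the salicylic acid, stress, ligase and partner groups. The members and lists were chosen with earlier results of these data known. Nothing in the labels says whether replicate pools were grown or infiltrated separately, so p-values measure the spread between these libraries. Exact Poisson intervals cover counting error only.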

Additional observations from a re-analysis of the deposited data

How the results depend on the processing

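All alternatives were planned; the cause of each change below was not tested. In the order w.tEDS1 against eds1-2, R493A against w.tEDS1, R493A against eds1-2, then w.tEDS1, R493A and eds1-2 against Col-0, edgeR called 14, 42, 7, 204, 333 and 383 genes. DESeq2 called 84, 155, 31, 1749, 1456 and 1843. Limma-voom called 6 and 23 in the first 2 and 185 and 223 in the last 2. With the run as a covariate 2 were called in the first and 571, 181 and 136 in the last 3. With the lane as a covariate 0, 5, 3, 26, 19 and 13 were called, and within lane 7 alone 0, 2, 1, 19, 15 and 10. The main run alone gave 0, 8 and 4 in the first 3 and 71 and 56 in the last 2. The 6 libraries of a comparison alone gave 27 and 75 in the first 2 and 39, 80 and 50 in the last 3, and no filter gave 13 in the third. Leaving out each library gave 1 to 64, 4 to 98, 3 to 13, 38 to 2701, 83 to 2367 and 57 to 3338, with the highest of the last 3 without Col-0 replicate 3.

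Libraries with the same replicate number showed no regular likeness, with 4 of 18 pairs at a correlation over 0.1 (range −0.509 to 0.381). With 3 libraries per genotype these correlations cannot decide whether the samples were paired. With the replicate block 6, 15, 4, 87, 159 and 132 genes were called, and PUB54 in R493A against Col-0 was −4.996 and no longer called.

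Of the 5 U-box genes, DESeq2 called 1, 1, 1 and 2 in w.tEDS1 against eds1-2, R493A against w.tEDS1, and w.tEDS1 and R493A against Col-0, in place of 0, 0, 0 and 1. The 6 libraries alone gave 1, 1 and 0 in the first, second and last of these. In the last, 0 were called with limma-voom, the replicate block, the run or lane as a covariate, the main run alone and lane 7 alone. Leaving out each library gave 0 to 1, 0 to 1, 0 to 4 and 0 to 4.

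PUB54 was newly called with DESeq2 and with the 6 libraries alone in w.tEDS1 against eds1-2 (4.38 and 4.37) and in R493A against w.tEDS1 (−3.84 and −3.84). It lost its call in R493A against Col-0 with limma-voom (−4.55), the run (−5.50) or lane (−2.21) as a covariate, the main run alone (−5.34), lane 7 alone (−1.98) and the 6 libraries alone (−5.57). Leaving out each library, PUB54 lay between 4.18 and 4.48, −4.22 and −3.62, and −6.10 and −3.56 in these 3 comparisons. In w.tEDS1 against Col-0 it lay between −2.26 and 0.28, and turned to 1.33 with the lane as a covariate and 1.33 within lane 7.

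The sign turned, in values that were not called, for PUB24 in w.tEDS1 against eds1-2 with the run as a covariate (−0.11) and the main run alone (−0.054). In R493A against eds1-2 it turned for PUB22 with the lane as a covariate (−0.090) and the main run alone (−0.11), for PUB24 with the lane as a covariate (0.0015) and within lane 7 (0.39), and for PUB23 within lane 7 (0.28). Against Col-0, with the lane as a covariate and within lane 7, it turned for PUB24 in w.tEDS1 (0.21 and 0.21), PUB22 in R493A (0.15 and 0.25), and PUB22 (0.24 and 0.12) and PUB12 (0.30 and 0.44) in eds1-2. Leaving out each library, PUB24 lay between −0.056 and 0.61 and PUB22 between −0.47 and 0.036 in w.tEDS1 against eds1-2. In R493A against eds1-2 PUB22 lay between −0.21 and 0.30, PUB23 between −0.22 and 0.23 and PUB24 between −0.44 and 0.31, and PUB12 lay between −0.10 and 0.42 in w.tEDS1 against Col-0.

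Depth limits PUB54 in eds1-2 and R493A, at 7 to 20 reads a library. With 3 libraries a genotype, Col-0 split over 2 lanes and no other genotype in lane 6, the lane and Col-0 replicates 1 and 2 cannot be told apart. A lane term therefore leaves Col-0 to its replicate 3, as lane 7 alone does. For comparisons with Col-0 these settings are not separate checks.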
